A study of Mus musculus with 13 samples.

Results

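Transcripts of chemokines and of their receptors were followed in the liver of mice with and without *Nod2*. Chemokines are small secreted proteins that guide leukocytes, and they are read by receptors that signal through G proteins of the Gi family. In the liver they are made by hepatocytes, sinusoidal endothelium, stellate cells, bile duct epithelium and resident macrophages, and each leukocyte type answers to the ligands whose receptors it carries. The atypical receptors bind chemokines without Gi signalling and remove or transport them. The genes were picked by a rule on their names, but this family was chosen for study with earlier results of these data known. They are all protein-coding genes whose mouse GENCODE symbol begins with Ccl, Cxcl, Cx3cl, Xcl, Ccr, Cxcr, Cx3cr, Xcr or Ackr followed by a digit. This gave 67 genes, 44 for ligands and 23 for receptors, of the 53465 genes in the count table, with 62 distinct symbols. A further 3 genes with such names are not annotated as protein coding and were left out (*Cxcl11*, a polymorphic pseudogene, *Ccl19-ps1* and *Ccl19-ps3*).

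The livers came from 6 WT and 7 *Nod2*-/- male BALB/c mice, with 1 library per mouse. *Nod2* encodes an intracellular sensor of bacterial peptidoglycan fragments. Every mouse, WT included, had received the carcinogen DMBA as a pup and was then kept on a high fat diet, and the labels give an age of 30 weeks and a disease state of cancer for both groups. The study's methods give these livers a time on the diet that is longer than the labelled age, so the age is uncertain. Under this regimen the study found more weight gain and more liver tumors in *Nod2*-/- than in WT males, which the shared disease label does not show. Genotype, body weight and tumor burden therefore cannot be told apart here. The *Nod2* deletion was present in all cells of the animals, and WT and *Nod2*-/- mice were bred separately in the same room and were not littermates, so that genotype and breeding line cannot be told apart. The question was how expression differed between the genotypes under this regimen.

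The number of reads counted on genes was 14886273 to 20579984 per WT mouse and 13824780 to 19391431 per *Nod2*-/- mouse. Markers of hepatocytes summed to 81608 to 168110 counts per 1000000 reads (CPM), the highest sum of the 12 cell type lists, which matched the labelled tissue. A pair of mice stood apart. In *Nod2*-/- replicate 7 the 14 listed neutrophil markers summed to 1077 CPM, against 6.76 to 95.4 CPM in the other *Nod2*-/- mice and 3.90 to 10.8 CPM in WT mice. In WT replicate 3 the 8 markers of stellate cells and fibroblasts summed to 435 CPM, against 223 to 283 CPM in the other WT mice. Much of that excess was 1 marker, *Reln*, with a normalized count of 2808 in WT replicate 3 against a WT median of 919. Where leaving out 1 of these mice moved the fold change of a tested chemokine or receptor gene described below by over 1.5 times, the value without it is given. Normalized counts below are counts put on the mean library size after TMM scaling. A level compared between genes is the CPM per kilobase of exon.

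Of the 67 genes, 12 had no read in any mouse. Of these, 7 lie on unplaced scaffolds and are copies of *Ccl19*, *Ccl21a*, *Ccl21b*, *Ccl21c* and *Ccl27*, near-identical genes among which reads cannot be assigned with certainty. The other 5 are *Ccl1*, *Ccl21b*, *Ccl26*, *Ccl27b* and *Ccr8* on assembled chromosomes. A count of 0 allows up to 0.146 to 0.217 CPM in these libraries, a limit for counting error only. Reads were seen for 31 further genes that were too low for edgeR's expression filter, and 26 of them had at most 10 reads in every mouse. These 26 included *Xcl1*, *Ccl3*, *Ccl4*, *Ccl17*, *Ccl22*, *Ccl19* and *Ccl20* among the ligands and *Cxcr3*, *Cxcr5*, *Ccr4*, *Ccr6*, *Ccr7*, *Ccr9*, *Ccr10*, *Cxcr1* and *Xcr1* among the receptors. The 24 genes that passed the filter, 14 ligands and 10 receptors, were tested.

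The ligand RNA of these livers came mainly from 3 genes. Per kilobase of exon, *Cxcl12*, the stromal ligand of Cxcr4 that holds leukocytes and progenitors in place, had the highest mean level in both genotypes, 31.3 ± 3.47 (SD, n = 6) in WT and 34.6 ± 6.82 (SD, n = 7) in *Nod2*-/- mice. *Ccl9*, a myeloid ligand of Ccr1, had a mean level of 17.1 ± 5.98 in WT and 23.4 ± 7.44 in *Nod2*-/- mice. *Cxcl1*, a neutrophil attractant, was below *Ccl9* in WT mice at 10.1 ± 3.31. In *Nod2*-/- mice its mean was 29.8 ± 23.2, an SD within which the means of *Ccl9* and *Cxcl12* lay, and in replicates 4, 5 and 7 it was above *Cxcl12*. Together they made 67.0 to 84.6% of the summed ligand level in WT mice (median 78.8%) and 68.7 to 82.2% in *Nod2*-/- mice (median 73.0%), ranges that overlap. Next in WT mice came *Ccl6* at 3.25, *Cxcl16* at 2.53 and *Cxcl9* at 2.42, with *Cxcl14* far lower at 0.360. By its mean of 7.93 ± 9.86 in *Nod2*-/- mice, *Cxcl14* came before *Ccl6* at 5.99 and *Cxcl16* at 3.65, but this order did not hold in most of these mice. *Cxcl14* was above *Ccl6* only in replicates 4 and 6, with 17.4 and 11.2% of the ligand level against 3.76 and 4.57%. It was above *Cxcl16* only in those mice and in replicate 7. Per kilobase of coding sequence *Cxcl12* was also first in both genotypes, and *Ccl9* and *Cxcl1* had nearly equal means of 195 and 194 in *Nod2*-/- mice. Summed over all ligands, the level was 63.1 to 90.1 in WT mice (median 74.0) and 72.6 to 174 in *Nod2*-/- mice (median 98.3). Receptors were far lower, with summed levels of 5.02 to 7.53 in WT mice (median 5.68) and 5.63 to 19.1 in *Nod2*-/- mice (median 8.28). Among them the atypical receptor *Ackr1*, which carries chemokines across venular endothelium, was first with 26.1% ± 3.37 (SD, n = 6) of the receptor level in WT and 27.1% ± 7.50 (SD, n = 7) in *Nod2*-/- mice. The plot of the make-up of the transcripts shows these shares mouse by mouse.

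**Figure D1:**
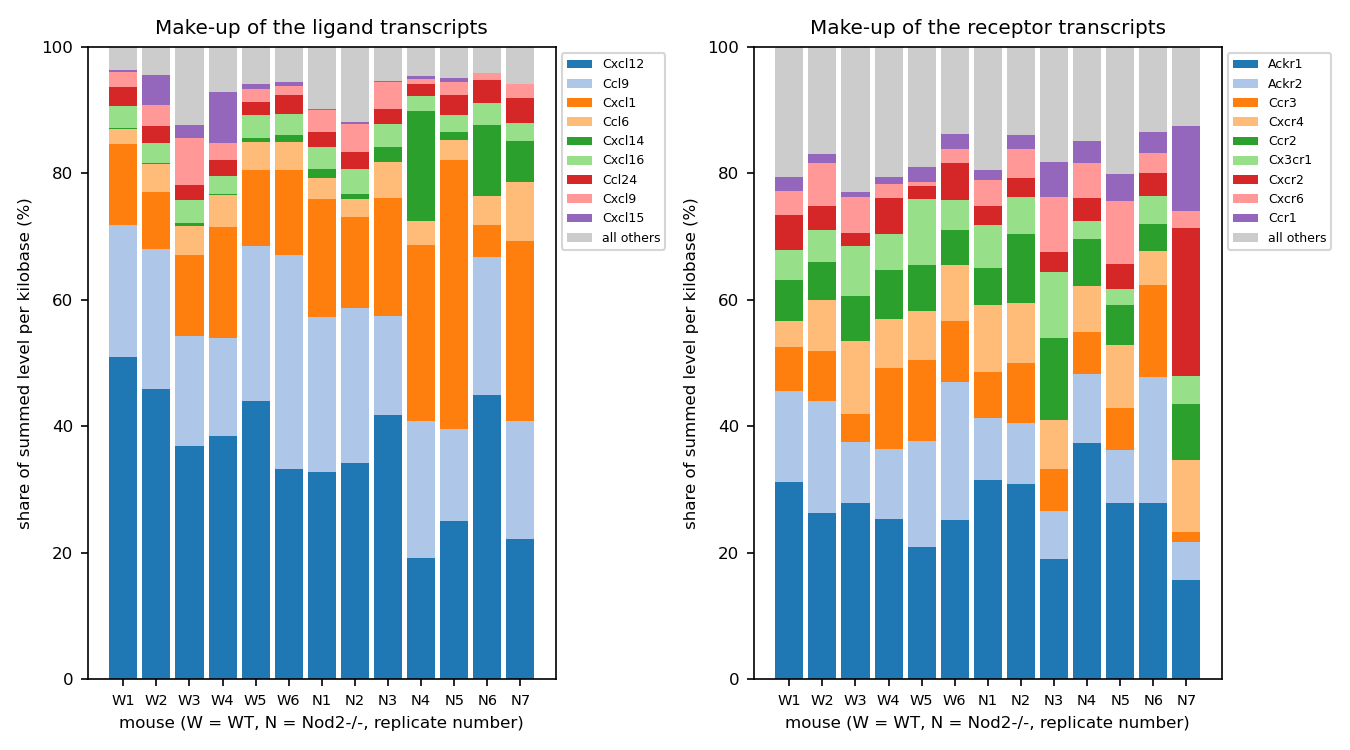
Share of each gene in the summed level of ligand transcripts (left) and of receptor transcripts (right), in percent of reads per kilobase of exon, with 1 stacked bar per mouse. *Cxcl12* fills 33.3 to 50.9% of the ligand bar in WT and 19.1 to 44.9% in *Nod2*-/- livers, and *Cxcr2* fills 23.5% of the receptor bar in *Nod2*-/- replicate 7.

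Between genotypes, most tested genes had higher values in *Nod2*-/- mice, but few differences passed the test. Of the 24 genes, 21 had a log2 fold change above 0 and 3 below 0, with a median of 0.55 (ligands 0.52, receptors 0.57), against a median of 0.02 over all 13545 genes tested, of which 52.3% were above 0. Without *Nod2*-/- replicate 7 the median was 0.27, over the 21 genes that passed the filter in that fit, so the 2 medians are not over the same genes. In bulk tissue, more cells of a type and more RNA per cell cannot be told apart in any of these values. In edgeR's quasi-likelihood test, with p adjusted by Benjamini and Hochberg's method over all genes tested, 1 of the 24 genes passed 5% FDR, *Cxcl14*, where 1.16% of all genes did. At an unadjusted p under 0.05 there were 11 genes (45.8%), where 23.1% of all genes tested had such a p. Of these, 10 were higher in *Nod2*-/- mice, where 12.9% of all genes had such a p and were higher.

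With DESeq2, the tool of the study, 5 of the 27 genes that received an adjusted p passed 5% FDR, where 8.41% of all genes did. They were *Cxcl1*, *Cxcl14*, *Cxcl16* and *Ccr1*, all higher in *Nod2*-/- mice, and *Cxcl15*, which was lower. With limma's voom and quality weights, *Cxcl16* alone passed, where 6.22% of all genes did. Without WT replicate 3, edgeR passed *Cxcl13*, *Cxcl14* and *Cxcl16*, where 8.49% of all genes passed. None of the 24 tested genes separated the genotypes without overlap of their normalized counts, whereas 1.44% of all genes tested did.

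**Figure D2:**
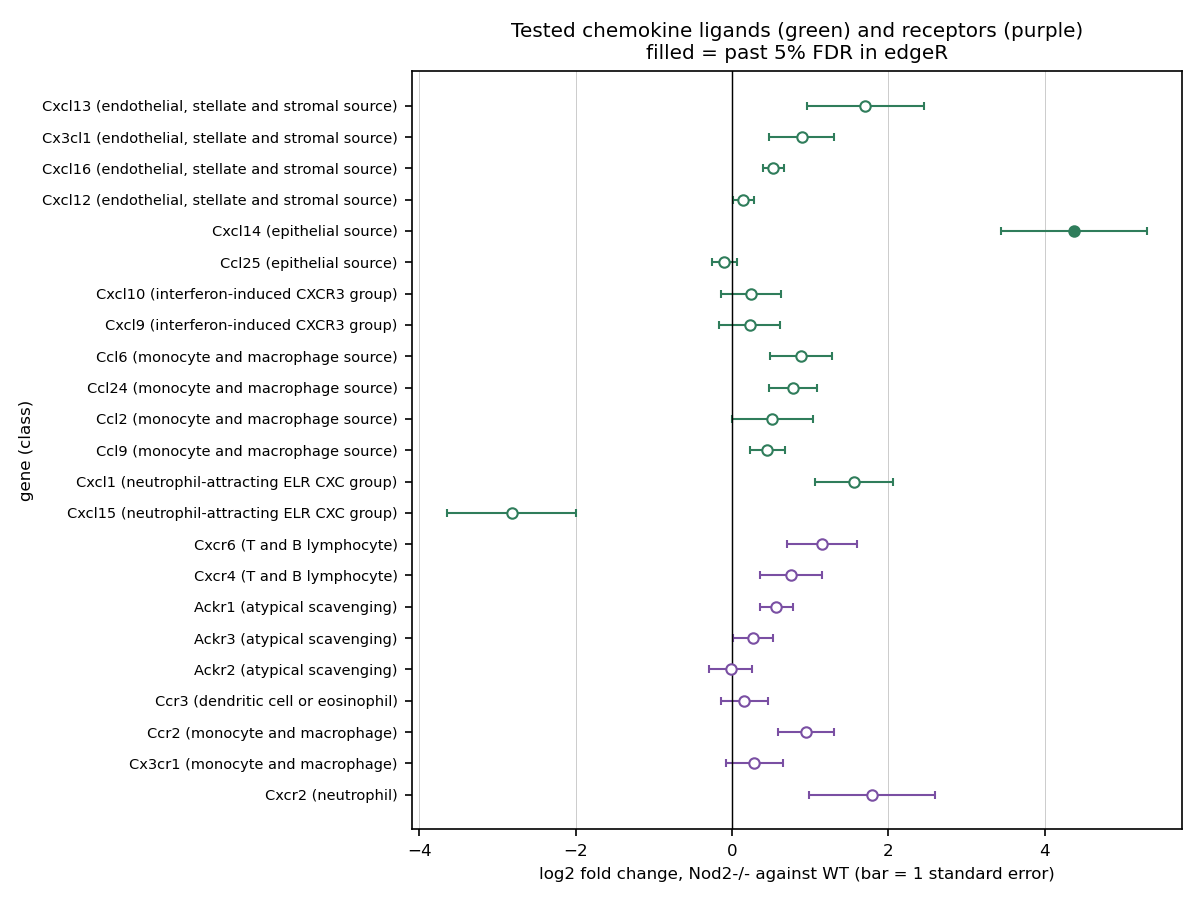
Log2 fold change (*Nod2*-/- against WT, edgeR) of 23 tested genes, grouped by source of the ligand or leukocyte of the receptor, with bars of 1 standard error. The filled point, *Cxcl14* at 4.38, is the gene past 5% FDR, *Cxcl15* at -2.82 is the lowest, and all points but 3 lie right of 0.

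The ligands with a conserved ELR motif attract neutrophils through Cxcr2. Their genes *Cxcl5*, *Cxcl3*, *Cxcl15*, *Cxcl1* and *Cxcl2* lie within 147 kb on chromosome 5 of build GRCm38. *Cxcl1* (ENSMUSG00000029380.11, 90891241 to 90893115) was by far the most abundant of them per kilobase. It made 64.6 to 96.2% of the level of this group in WT mice (median 87.9%) and 95.9 to 99.2% in *Nod2*-/- mice (median 98.3%).

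The normalized counts of *Cxcl1* were 282, 202, 305, 490, 239 and 364 in WT replicates 1 to 6 and 486, 323, 568, 1384, 2039, 146 and 1539 in *Nod2*-/- replicates 1 to 7. The lowest *Nod2*-/- mouse, replicate 6, was below all WT mice, and 4 of the 7 were above all of them. Expression of *Cxcl1* had a log2 fold change of 1.56 (SE 0.50, adjusted p = 0.0960 by edgeR and 0.0448 by DESeq2, exact permutation p = 0.0810, two-sided). It ranged from 1.24 to 1.75 when single mice were left out.

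*Cxcl2* and *Cxcl3*, the closest relatives of *Cxcl1*, were near absent. *Cxcl2* had 0 to 12 reads per mouse, 28 in all WT and 33 in all *Nod2*-/- mice, and *Cxcl3* had 3 reads in all. The stretch before each of the 3 genes is shown because the genes share a promoter element while their transcripts did not reach like levels. The sequences are those of RefSeq on GRCm38.p6, on the plus strand, from 120 to 31 bases before the RefSeq start (*Cxcl1* chr5:90891125-90891214, *Cxcl2* chr5:90903779-90903868, *Cxcl3* chr5:90785981-90786070). Capitals mark matches to the NF-kappaB consensus, the binding letters of a factor that acts downstream of Nod2 and of other innate sensors.

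Cxcl1: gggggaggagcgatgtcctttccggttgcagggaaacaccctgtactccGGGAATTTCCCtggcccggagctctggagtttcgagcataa
Cxcl2: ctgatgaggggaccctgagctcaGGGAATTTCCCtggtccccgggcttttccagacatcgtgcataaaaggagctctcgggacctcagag
Cxcl3: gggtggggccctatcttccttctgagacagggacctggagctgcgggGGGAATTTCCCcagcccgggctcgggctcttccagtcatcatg

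The 11 capital letters are the same in all 3 genes and hold a match on each strand, overlapping by 9 letters. Searched on both strands over the 250 bases before the start, this consensus was found in 11 of 53 windows of the genes described here (20.8%) and in 7.25% of all 32851 windows in the table. The 53 windows belong to 46 of the 62 symbols. The 11 windows include those of *Ccl9*, *Cxcl10*, *Ccl20* and *Ccr1*. A match is only a description of the letters.

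*Cxcl15*, a chemokine best known from lung epithelium, was the tested ligand with the lowest fold change. Its normalized counts were 8.20, 122, 56.9, 259, 16.6 and 15.6 in WT replicates 1 to 6 and 3.17, 8.92, 6.16, 20.9, 32.5, 3.41 and 0.980 in *Nod2*-/- replicates 1 to 7. WT replicates 2, 3 and 4 were above every *Nod2*-/- mouse, and the other WT mice lay among them. This gave a log2 fold change of -2.82 (SE 0.82, adjusted p = 0.0802 by edgeR and 0.0231 by DESeq2, exact permutation p = 0.0256, two-sided). Its neighbour *Cxcl1*, which begins 88.2 kb beyond its end, had higher values in *Nod2*-/- mice.

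The same WT mice that were highest for *Cxcl15* were highest for transcripts of lung epithelium. The 13 listed lung markers, all with reads in some mouse, summed to 15.1 to 207 CPM in WT mice and 3.83 to 34.6 CPM in *Nod2*-/- mice, and 5 of the 6 that could be tested had negative fold changes. Of these 6, 0 passed 5% FDR in edgeR and 5 had an unadjusted p under 0.05, where 23.1% of all genes did. Of the 9 that DESeq2 tested, 7 passed, all lower in *Nod2*-/- mice, where 8.41% of all genes passed. WT replicates 4, 2 and 3, in this order, had the highest sums (207, 116 and 57.9 CPM), as they had for *Cxcl15*. The part of these transcripts in the *Cxcl15* difference was not tested.

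*Cxcl14*, a ligand of epithelia that attracts monocytes and immature dendritic cells, had the largest fold change of the tested genes. Its values (normalized counts) were 4.10, 4.39, 11.7, 3.29, 9.94 and 31.9 in WT replicates 1 to 6 and 37.0, 16.9, 70.9, 846, 57.1, 312 and 343 in *Nod2*-/- replicates 1 to 7. The 7 *Nod2*-/- mice were all above the WT median, and 6 of them were above every WT mouse. *Nod2*-/- replicate 2 lay below WT replicate 6, and *Nod2*-/- replicates 4, 6 and 7 were far above the others. From these values the log2 fold change was 4.38 (SE 0.93, adjusted p = 0.0422 by edgeR).

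This call depended on the mice and on the test. When single mice were left out, the fold change of *Cxcl14* stayed between 3.60 and 5.12, and it passed 5% FDR in 6 of 13 such fits. The call was lost without WT replicate 1, 2, 4 or 5 (fold change 4.20 to 4.34) and without *Nod2*-/- replicate 4, 6 or 7 (3.60 to 4.31). Calls fell over all genes in the same fits. With all mice 157 genes passed, against 41 to 52 without 1 of these WT mice. Without 1 of these *Nod2*-/- mice 54 to 81 passed, and 146 to 1156 did in the 6 fits that kept the call. For *Cxcl14*, DESeq2 gave a fold change of 4.44 with an adjusted p of 9.28e-05, and voom gave 3.50 with an adjusted p of 0.0698. An exact permutation test of its mean normalized counts gave p = 0.0536 (two-sided). In the plot of normalized ligand counts, the *Nod2*-/- mice spread from 16.9 to 846 for *Cxcl14*.

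**Figure D3:**
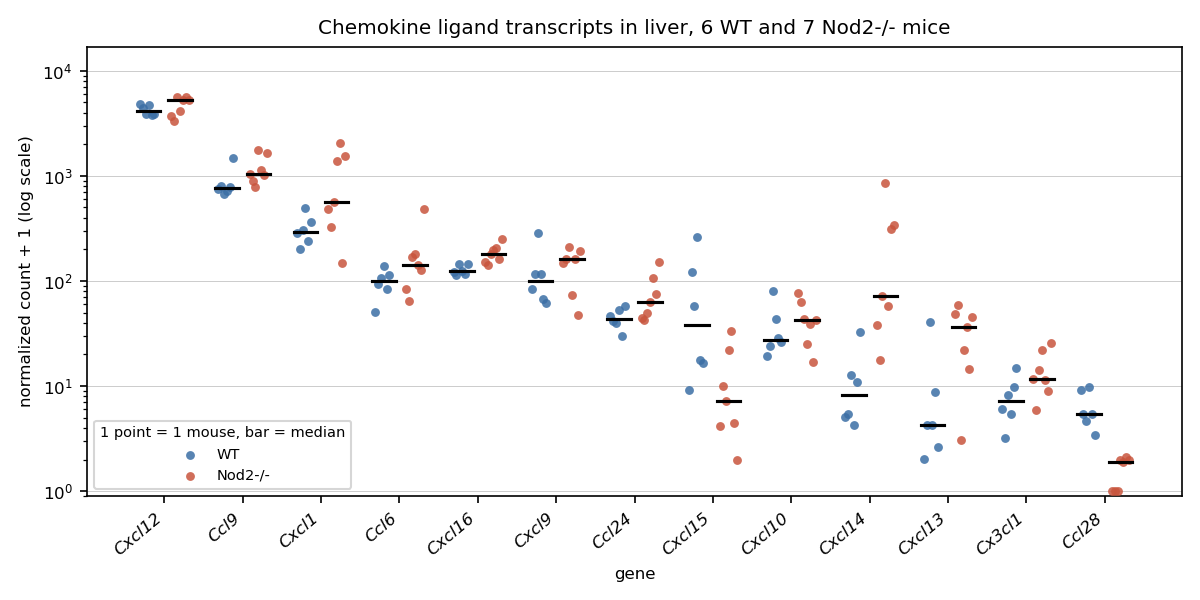
Normalized count plus 1 of 13 ligand genes on a log scale, with 1 point per mouse (6 WT in blue, 7 *Nod2*-/- in red) and a bar at the median of each group. For *Cxcl14* the medians are 7.16 in WT and 70.9 in *Nod2*-/- mice, for *Cxcl15* they are 36.8 and 6.16, and *Ccl28* is the gene whose points do not overlap.

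The level of *Cxcl14* was 0.121 to 1.22% of the ligand level in WT and 0.767 to 17.4% in *Nod2*-/- livers. Its gene (ENSMUSG00000021508.11) lies on chromosome 13 from 56288643 to 56296551, on the minus strand. The 220 bases from 250 to 31 before its RefSeq start (GRCm38.p6, chr13:56296582-56296801, minus strand) are shown because this gene carried the call, with the match to the interferon-response letters GAAANNGAA in capitals.

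Cxcl14: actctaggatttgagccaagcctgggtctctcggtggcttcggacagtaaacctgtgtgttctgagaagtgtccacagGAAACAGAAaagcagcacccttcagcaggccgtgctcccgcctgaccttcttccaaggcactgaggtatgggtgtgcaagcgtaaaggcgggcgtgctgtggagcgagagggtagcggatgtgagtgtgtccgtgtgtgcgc

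GAAANNGAA, searched on both strands, was found in 8 of the 53 windows (15.1%), among them those of *Cxcl9*, *Cxcl10* and *Ccr2*, and in 7.13% of all windows. Of the 2 other sets of letters searched, the AP-1 site TGANTCA was found in 6 windows (11.3%, against 6.75% of all) and TATAAA in 15 (28.3%, against 12.4% of all). The *Cxcl14* window held neither of these nor the NF-kappaB consensus.

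Markers of bile duct epithelium, the epithelium lining the ducts of the liver, are given beside this gene. The 6 listed markers, all with reads, summed to 35.8 to 216 CPM in WT mice and 107 to 402 CPM in *Nod2*-/- mice. *Spp1*, osteopontin, which macrophages and other cells also make, was 86.1 to 96.6% of this sum in every mouse, so that the sum mostly gives 1 gene. The other 5 markers summed to 4.20 to 13.5 CPM in WT and 8.49 to 14.5 CPM in *Nod2*-/- mice, ranges that overlap. *Nod2*-/- replicate 4 was highest both for the full sum and for *Cxcl14*, but *Nod2*-/- replicate 2 and WT replicate 3 combined sums of 297 and 216 CPM with *Cxcl14* counts of 16.9 and 11.7. Of the 5 markers tested, 3 had positive and 2 negative fold changes, the latter being the duct keratins *Krt19* (-0.40) and *Krt7* (-0.05). *Spp1* had a log2 fold change of 1.30 (SE 0.44, adjusted p = 0.109 by edgeR). *Sox9*, a regulator of duct cells that is also switched on in injured hepatocytes, was higher in *Nod2*-/- mice (log2 fold change 1.29, SE 0.25, adjusted p = 0.0324 by edgeR, and 0.0567 without *Nod2*-/- replicate 7). Their part in the *Cxcl14* difference was not tested.

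*Ccl28*, a mucosal epithelial ligand of Ccr10 and Ccr3, was the gene with a count whose groups did not overlap, and it was too low for the filter. Its reads numbered 8, 4, 4, 8, 4 and 3 in WT replicates 1 to 6 and 0, 0, 0, 1, 1, 1 and 1 in *Nod2*-/- replicates 1 to 7, a total of 31 against 4. Of the 55 genes described here with a count, it alone separated the groups, where 0.783% of all genes with a count did. The exact permutation test gave its smallest possible p, 0.000583 (two-sided). Tested without a filter, it passed 5% FDR in edgeR with a log2 fold change of -2.96 (SE 0.59, adjusted p = 0.0274), as did *Cxcl14*, so that 2 of 55 genes passed where 0.54% of all genes did. At so few reads the size of the change is poorly known, and DESeq2 gave no adjusted p.

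Of the other epithelial ligands, *Cxcl17*, which attracts macrophages in mucosa, had 20 reads in WT replicate 3 and 28 in *Nod2*-/- replicate 4 but 0 to 6 in every other mouse. *Ccl20* had 0 to 7 reads. *Ccl25*, which calls Ccr9-bearing lymphocytes to the gut, had 52 to 104 reads in every mouse and a log2 fold change of -0.10, which was -0.02 without *Nod2*-/- replicate 7. It overlaps *Elavl1* on the opposite strand, and whether the counting used strand is not given in the sources used here.

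Among ligands of endothelial, stellate and stromal cells, all 4 tested genes had positive fold changes. *Cxcl16*, a membrane-bound ligand of Cxcr6 is made by sinusoidal endothelium and macrophages. In normalized counts it had 121, 113, 144, 124, 115 and 143 in WT replicates 1 to 6 and 151, 142, 179, 194, 206, 159 and 249 in *Nod2*-/- replicates 1 to 7. The 7 *Nod2*-/- mice were all above the WT median and 6 were above all WT mice, with replicate 2 just below the highest WT mice. For *Cxcl16* the log2 fold change was 0.53 (SE 0.13, adjusted p = 0.0644 by edgeR, 0.0128 by DESeq2 and 0.0355 by voom, exact permutation p = 0.00408, two-sided).

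Leaving out single mice moved the fold change of *Cxcl16* between 0.44 and 0.58, and it passed 5% FDR in edgeR in 1 of 13 such fits, the one without WT replicate 3 (adjusted p = 0.0355). *Cxcl16* overlaps *Zmynd15*, which had at most 78 reads in any mouse, on the opposite strand. The 8 markers of sinusoidal endothelium summed to 220 to 304 CPM in WT and 236 to 296 CPM in *Nod2*-/- mice, ranges that overlap. By gene, 7 of the 8 had positive fold changes, with a median of 0.08, and 0 passed 5% FDR in edgeR. *Pecam1*, an adhesion protein of endothelium, had a log2 fold change of 0.46 (SE 0.12, adjusted p = 0.0662 by edgeR and 0.0155 by DESeq2), and *Stab1*, a scavenger receptor, one of 0.40 (SE 0.13, adjusted p = 0.104 by edgeR), sizes near that of *Cxcl16*. The part of endothelial content in the *Cxcl16* values was not tested.

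*Cxcl13* attracts B cells through Cxcr5 and marks lymphoid follicles. Its normalized counts were 1.03, 3.29, 39.8, 3.29, 7.73 and 1.64 in WT replicates 1 to 6 and 47.6, 58.5, 2.05, 20.9, 35.2, 13.7 and 44.1 in *Nod2*-/- replicates 1 to 7. WT replicate 3 lay among the highest *Nod2*-/- mice, and *Nod2*-/- replicate 3 lay among the other WT mice. With all mice the log2 fold change was 1.70 (SE 0.75, adjusted p = 0.194 by edgeR), and without WT replicate 3 it was 3.21 (SE 0.69, adjusted p = 0.0211). The receptor *Cxcr5* had 0 to 3 reads per mouse, and the 7 markers of B and plasma cells summed to 11.6 to 18.8 CPM in WT and 11.3 to 23.0 CPM in *Nod2*-/- mice. *Jchain*, a plasma cell gene with a log2 fold change of 0.07, was 75.5 to 91.6% of that sum. The other 2 that could be tested were *Cd79b*, a part of the B cell receptor, at 0.97 (SE 0.32, adjusted p = 0.106 by edgeR), and *Mzb1*, a plasma cell gene, at 0.45 (SE 0.27, not past 5% FDR). Their part in the *Cxcl13* values was not tested.

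*Cx3cl1*, fractalkine, is an adhesive ligand of endothelium read by Cx3cr1, and it lies 6.08 Mb from *Nod2* on chromosome 8. Its normalized counts were 5.13, 2.19, 7.23, 4.39, 8.84 and 13.9 in WT replicates 1 to 6 and 10.6, 4.96, 13.4, 20.9, 10.5, 7.97 and 24.5 in *Nod2*-/- replicates 1 to 7. The groups overlapped, and the log2 fold change was 0.89 (SE 0.42, adjusted p = 0.218 by edgeR). Its neighbours *Ccl22* and *Ccl17*, dendritic cell ligands of Ccr4, had 0 to 9 and 0 to 4 reads. *Cxcl12*, the ligand with the highest mean level, had a median normalized count of 4162 (3771 to 4857) in WT and 5207 (3356 to 5601) in *Nod2*-/- mice. The *Nod2*-/- median was above the highest WT mouse, but the lowest *Nod2*-/- mouse was below the lowest WT mouse. Its log2 fold change was 0.14 (adjusted p = 0.532 by edgeR).

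All 4 tested ligands of monocytes and macrophages had positive fold changes. Of them, 2 had an unadjusted p under 0.05, where 23.1% of all genes had such a p, and 0 passed 5% FDR in edgeR or in DESeq2. The 8 Kupffer cell markers summed to 295 to 624 CPM in WT and 497 to 665 CPM in *Nod2*-/- mice, so that these ranges overlapped too. *C6*, with a log2 fold change of 0.15, was 31.1 to 79.3% of the sum. By gene, 7 of the 8 had positive fold changes, with a median of 0.46. Of the 7, 2 had an unadjusted p under 0.05, where 23.1% of all genes had such a p, and 0 passed 5% FDR in edgeR or DESeq2. The 2 with such a p were *Cd5l* at 0.79 and *Timd4* at 0.77, which had 0.43 and 0.40 without *Nod2*-/- replicate 7. Their part in the ligand values was not tested. *Ccl24*, an eosinophil attractant that liver macrophages express and that Ccr3 reads, had normalized counts of 45.1, 40.6, 38.9, 51.5, 28.7 and 56.5 in WT replicates 1 to 6 and 43.4, 41.6, 48.3, 61.8, 106, 74.0 and 149 in *Nod2*-/- replicates 1 to 7. Of the *Nod2*-/- mice, 4 were above all WT mice, and the log2 fold change was 0.78 (SE 0.30, adjusted p = 0.147 by edgeR). Without *Nod2*-/- replicate 7 it was 0.52.

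*Ccl6*, a myeloid ligand of Ccr1, had normalized counts of 50.2, 93.2, 105, 137, 82.9 and 112 in WT replicates 1 to 6 and 83.5, 63.4, 170, 180, 142, 125 and 486 in *Nod2*-/- replicates 1 to 7. *Nod2*-/- replicate 7 was far above all other mice. The log2 fold change was 0.88 (SE 0.40, adjusted p = 0.204 by edgeR), and 0.39 without that mouse. *Ccl9*, next to *Ccl6* on chromosome 11, had a median of 760 (677 to 1473) in WT and 1048 (776 to 1760) in *Nod2*-/- mice, a log2 fold change of 0.45. *Ccl2*, the chief ligand of Ccr2, was low at 2.19 to 24.1 in WT and 3.99 to 23.5 in *Nod2*-/- mice, a log2 fold change of 0.52.

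The interferon-induced ligands of Cxcr3 attract T and NK cells, and their fold changes depended on WT replicate 3, the highest of all mice for both. *Cxcl9* had a median normalized count of 98.6 (61.4 to 284) in WT and 161 (46.7 to 212) in *Nod2*-/- mice, with a log2 fold change of 0.23, which was 0.67 without WT replicate 3 (adjusted p = 0.200 by edgeR), 0.14 without *Nod2*-/- replicate 7 and 0.57 by voom. *Cxcl10* had 26.5 (18.5 to 78.6) and 41.2 (15.9 to 76.1), with a log2 fold change of 0.25, which was 0.63 without WT replicate 3 (adjusted p = 0.256 by edgeR) and 0.56 by voom. Their receptor *Cxcr3* had 1 to 9 reads per mouse. *Ccl5*, made by T and NK cells, had 3 to 36 reads, 39 in all WT and 93 in all *Nod2*-/- mice.

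The receptors are described by the leukocyte that carries them. *Cxcr2*, the neutrophil receptor for *Cxcl1*, had normalized counts of 14.4, 9.87, 8.13, 17.5, 5.52 and 19.7 in WT replicates 1 to 6 and 8.46, 8.92, 14.4, 17.0, 16.7, 14.8 and 226 in *Nod2*-/- replicates 1 to 7. All *Nod2*-/- mice but replicate 7 lay within the WT range. With all mice the log2 fold change of *Cxcr2* was 1.79 (SE 0.80, adjusted p = 0.201 by edgeR), and it was 0.09 without *Nod2*-/- replicate 7. DESeq2, which replaced the count of that mouse as outlying, gave 0.07.

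The 14 neutrophil markers, all with reads in some mouse, were highest in the same mouse, as the plot of genes and markers shows. Their sum was 3.90 to 10.8 CPM in WT and 6.76 to 1077 CPM in *Nod2*-/- mice, with a median of 30.7 CPM in the latter. Of the 14, 4 passed the filter, and all 4 had positive fold changes with an unadjusted p under 0.05, where 23.1% of all genes had such a p. Of these, 0 passed 5% FDR in edgeR, where 1.16% of all genes did. DESeq2 passed 4 of the 6 it tested, where 8.41% of all genes passed. *Nod2*-/- replicates 4 and 5, with marker sums of 95.4 and 46.1 CPM, had *Cxcr2* counts of 17.0 and 16.7, which are within the WT range. Much of the sum in replicate 4 came from 1 gene, *Prtn3*, which peaked there at a normalized count of 1223, so that sum is a weak measure of neutrophils. The part of neutrophil content in the receptor values was not tested.

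**Figure D4:**
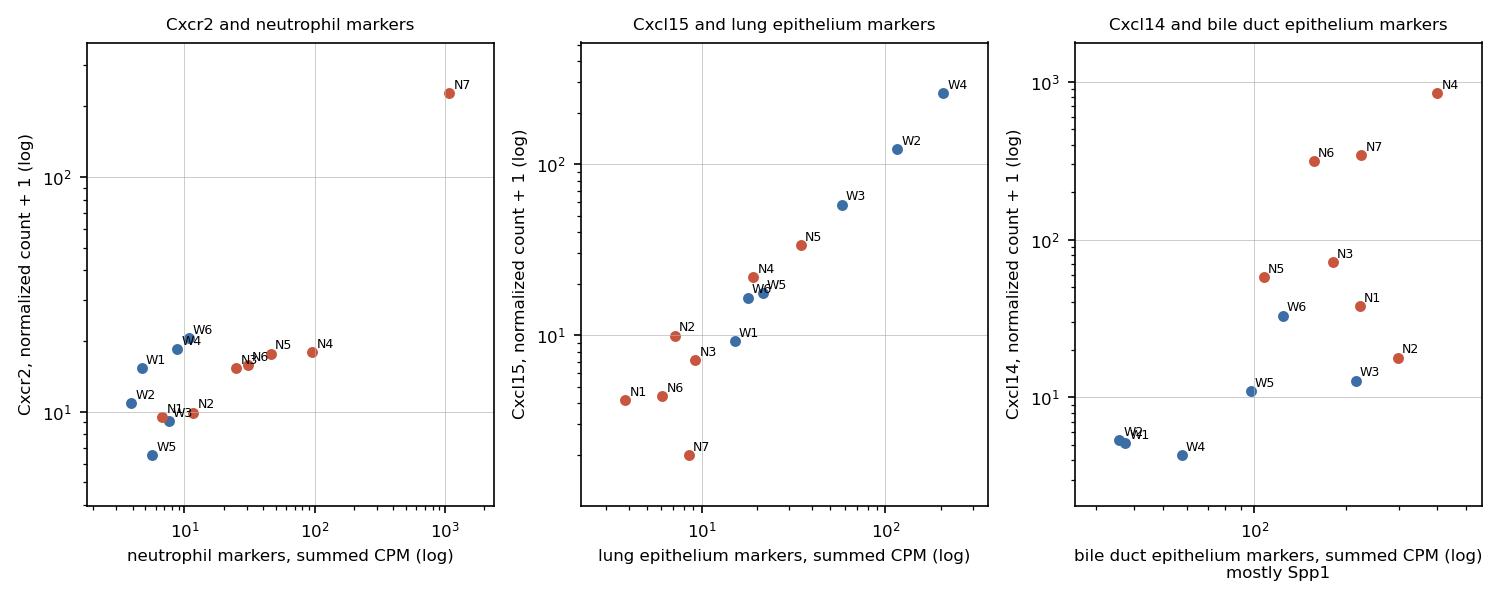
Normalized count plus 1 of *Cxcr2*, *Cxcl15* and *Cxcl14* against the summed CPM of neutrophil, lung epithelium and bile duct epithelium markers, log scales, with 1 point per mouse (WT in blue, W1 to W6, *Nod2*-/- in red, N1 to N7). N7 stands alone at 1077 CPM in the first panel, W4, W2 and W3 lead both axes in the second, and N4 leads both axes in the third, where *Spp1* is 86.1 to 96.6% of the marker sum.

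*Ccr1*, the receptor for *Ccl6* and *Ccl9* on neutrophils and monocytes, did not pass the edgeR filter. Its normalized counts were 5.13, 3.29, 2.71, 3.29, 5.52 and 7.37 in WT replicates 1 to 6 and 4.23, 5.95, 22.6, 15.0, 16.7, 12.5 and 121 in *Nod2*-/- replicates 1 to 7. *Nod2*-/- replicates 3 to 7 were all above every WT mouse, replicates 1 and 2 were not, and replicate 7 was highest. DESeq2 gave a log2 fold change of 2.60 (SE 0.69, adjusted p = 0.00741), edgeR without a filter gave 2.56 (SE 0.68, adjusted p = 0.0829), and the exact permutation test gave p = 0.0460 (two-sided). Without *Nod2*-/- replicate 7 the DESeq2 call was lost, with a log2 fold change of 1.46 (SE 0.49, adjusted p = 0.0591), and edgeR without a filter gave 1.44 (SE 0.43, adjusted p = 0.160).

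*Ccr2*, which brings inflammatory monocytes from the bone marrow, had normalized counts of 36.9, 34.0, 59.6, 53.7, 42.0 and 40.9 in WT replicates 1 to 6 and 37.0, 72.4, 129, 75.8, 59.8, 37.5 and 190 in *Nod2*-/- replicates 1 to 7. *Nod2*-/- replicates 1 and 6 lay within the WT range and 5 mice above it. The log2 fold change was 0.95 (SE 0.35, adjusted p = 0.136 by edgeR), and 0.62 without *Nod2*-/- replicate 7. The 9 markers of inflammatory monocytes, all with reads, summed to 9.72 to 20.3 CPM in WT and 14.0 to 122 CPM in *Nod2*-/- mice, highest again in replicate 7, and their part in this difference was not tested. *Cx3cr1*, on patrolling monocytes, had a log2 fold change of 0.29, which was 0.08 without *Nod2*-/- replicate 7 and 0.44 without WT replicate 3. *Ccr3*, on eosinophils, was at 0.16, and at 0.27 and 0.04 without these mice. The annotated *Cx3cr1* gene, with at most 67 reads, overlaps *Gorasp1* (up to 770 reads) and *Csrnp1* (up to 271) on the same strand. It also overlaps *Wdr48* (up to 722 reads) on the opposite strand, so reads there may belong to another gene.

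*Cxcr6*, the receptor for *Cxcl16* on liver-resident T and NKT cells, had normalized counts of 6.15, 11.0, 13.6, 4.39, 1.10 and 4.91 in WT replicates 1 to 6 and 7.40, 8.92, 24.7, 15.96, 26.4, 7.97 and 16.7 in *Nod2*-/- replicates 1 to 7. The 7 *Nod2*-/- mice were all above the WT median and 4 were above all WT mice. Expression of *Cxcr6* had a log2 fold change of 1.15 (SE 0.45, adjusted p = 0.147 by edgeR). *Cxcr6* lies within *Fyco1*, a gene on the opposite strand with up to 1100 reads. The 10 T cell markers, all with reads, summed to 4.30 to 6.00 CPM in WT and 3.50 to 11.8 CPM in *Nod2*-/- mice, and the mouse with the highest sum, *Nod2*-/- replicate 5, also had the highest *Cxcr6*. *Cxcr4*, the receptor for *Cxcl12* on most leukocytes, had a log2 fold change of 0.76, which was 0.33 (adjusted p = 0.566 by edgeR) without *Nod2*-/- replicate 7, the highest mouse at a normalized count of 64.7.

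**Figure D5:**
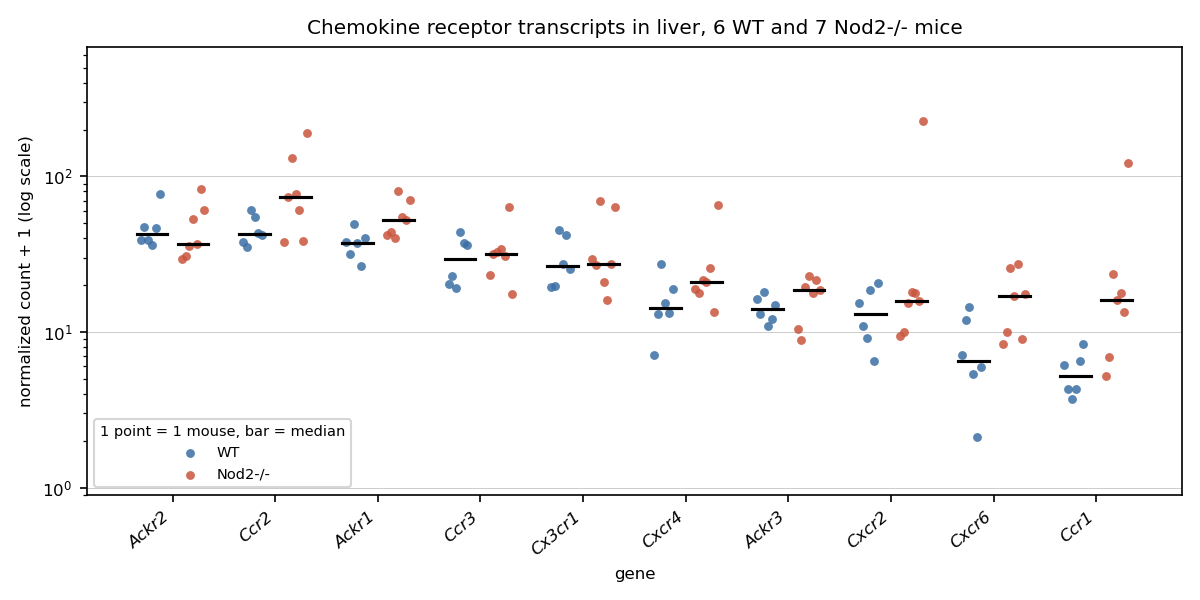
Normalized count plus 1 of 10 receptor genes on a log scale, with 1 point per mouse (6 WT in blue, 7 *Nod2*-/- in red) and a bar at the median of each group. For *Cxcr2* and *Ccr1* the highest point is *Nod2*-/- replicate 7, at normalized counts of 226 and 121, and the medians of *Cxcr2* are 12.1 in WT and 14.8 in *Nod2*-/- mice.

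Of the atypical receptors, *Ackr1* had normalized counts of 36.9, 30.7, 48.8, 36.2, 25.4 and 39.3 in WT replicates 1 to 6 and 41.2, 42.6, 39.0, 79.8, 53.6, 51.2 and 69.6 in *Nod2*-/- replicates 1 to 7. All *Nod2*-/- mice were above the WT median and 4 were above every WT mouse. The log2 fold change was 0.57 (SE 0.21, adjusted p = 0.132 by edgeR). *Ackr1* overlaps *Cadm3* on the same strand, so reads there may belong to either gene. *Ackr3*, which scavenges *Cxcl12*, had a log2 fold change of 0.27, and *Ackr2*, which degrades inflammatory CC chemokines, one of -0.02, which was -0.09 without *Nod2*-/- replicate 7 and -0.08 without WT replicate 3. *Ackr4*, a scavenger of Ccr7 ligands, had 1 to 16 reads.

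The genes that act behind the receptors were taken from a list of 42 G protein subunits, arrestins, receptor kinases, regulators of G protein signalling, lipid and tyrosine kinases and Rac pathway genes. Of the 39 tested, 31 had positive and 8 negative fold changes, with a median of 0.32, and 15 had an unadjusted p under 0.05 (23.1% of all genes tested did). By edgeR, 1 passed 5% FDR (1.16% of all genes did), *Arrb2*, which encodes beta-arrestin 2, an adaptor that silences and internalizes chemokine receptors. Its normalized counts were 143 to 207 (median 197) in WT and 224 to 469 (median 298) in *Nod2*-/- mice, which did not overlap (1.44% of all genes did not), and the log2 fold change was 0.70 (SE 0.16, adjusted p = 0.0438), or 0.58 (adjusted p = 0.0619) without *Nod2*-/- replicate 7. DESeq2 passed 7 of the 40 it tested, where 8.41% of all genes passed. Of these, 6 were higher and 1, *Ptk2b*, a tyrosine kinase of leukocytes, was lower in *Nod2*-/- mice (edgeR log2 fold change -0.70, adjusted p = 0.0659). The normalized counts of *Ptk2b* did not overlap either, at 682 to 820 in WT and 186 to 543 in *Nod2*-/- mice (1.44% of all genes tested did not).

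A second list held 12 relatives that the naming rule leaves out. Of the 10 tested, all 10 had positive fold changes, with a median of 0.64. In edgeR 0 passed 5% FDR (1.16% of all genes did) and 1 had an unadjusted p under 0.05 (23.1% of all genes did). DESeq2 passed 2 of all 12, where 8.41% of all genes passed. These were *Fpr2*, which was higher, and *Gpr183*, an oxysterol receptor too low for the edgeR filter, which was lower in *Nod2*-/- mice (DESeq2 log2 fold change -1.77, SE 0.49, adjusted p = 0.0112). The 3 with the lowest p in edgeR are named. They were *Fpr2*, a formyl peptide receptor of neutrophils and macrophages, with 3.31 to 10.8 normalized counts in WT and 6.35 to 118 in *Nod2*-/- mice (log2 fold change 2.11, SE 0.67, adjusted p = 0.0965 by edgeR), *Ltb4r1*, a leukotriene receptor, with a log2 fold change of 0.80, and *Cmklr1*, the chemerin receptor, with one of 0.58. Without *Nod2*-/- replicate 7, *Fpr2* did not pass the filter and *Cmklr1* was at 0.38.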

How the data were processed

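RNA sequencing measured liver transcripts in 6 WT and 7 *Nod2*-/- mice, with a separate library for each. The authors removed adapters with Trimmomatic 0.33, aligned to GRCm38 (GENCODE M16) using TopHat2 2.1.1, and deposited whole-number counts per gene, which were not normalized. Libraries were stranded and made from polyadenylated RNA. The counting program and its use of strand are not given in the sources used here. A row that names no gene (1) was dropped.

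Each mouse had 13824780 to 20579984 counts, and limits for a count of 0 cover counting error only. Replicates are separate mice, and no library was a duplicate of another. Positions come from GENCODE M21 on GRCm38, which holds 53360 of the 53465 genes.

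The test was edgeR's quasi-likelihood test (version 4.0.16, R 4.3.3, glmQLFit and glmQLFTest, two-sided) with TMM scaling and no covariate, on the 13545 genes that filterByExpr kept. Adjusted p-values (Benjamini-Hochberg, threshold 0.05) are over those genes. Fold changes divide *Nod2*-/- by WT. Exact permutation tests used all 1716 ways to split the mice, and their smallest p is 0.000583. As alternatives, DESeq2 1.42.0, voomWithQualityWeights of limma 3.58.1, RLE scaling, no filter, a minimum of 10 counts per mouse, a block for the replicate number, coding length and the removal of mice were tried. DESeq2 without replacement of outlying counts, and the *Ccr1* tests without *Nod2*-/- replicate 7, were added after seeing the data. The tests were tried on simulated data.

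The genes, the classes by source and leukocyte, and the pathway and marker lists were chosen with earlier results of these data known. Values in every mouse are given for genes past 5% FDR or with an unadjusted p under 0.05, for those the study's text or immune gene table names, and for tested genes within 10 Mb of *Nod2*. Promoter sequences are RefSeq's on GRCm38.p6, and no protein sequences were used here. The values of 1 gene are not reported here, and it stays in the counts and sums over genes.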

Additional observations from a re-analysis of the deposited data

Results flagged for a closer look

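For the 14 genes with values given in every mouse, the highest and the lowest mouse of each genotype were compared with the nearest other mouse by Dixon's test at 95%, in 28 groups. Chance flags about 1 in 20 groups, and 6 values were flagged. Some of them came from the same mouse, so the flags are not independent of each other. *Nod2*-/- replicate 7 was flagged for *Cxcr2* (normalized count 226.4), *Ccr1* (120.5) and *Ccl6* (486.1), the mouse in which neutrophil markers summed to 1077 CPM. *Nod2*-/- replicate 4 was flagged for *Cxcl14* (845.7), and so was WT replicate 6 (31.93). WT replicate 3 was flagged for *Cxcl13* (39.77).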

How the results depend on the processing

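The median log2 fold change of the tested genes stayed above 0 under all 21 alternatives, from 0.27 to 0.67 when single mice were left out and at 0.37 with the replicate block. The set of genes that passed the filter changed with the mice, from 21 without *Nod2*-/- replicate 7 to 26 without WT replicate 4, 5 or 6. The number of chemokine and receptor genes past 5% FDR, 1 with all mice, was 5 with DESeq2 with or without replacement of outlying counts, 2 without a filter, 0 at 10 counts in every mouse, 0 with the replicate block, 3 without WT replicate 3 and *Nod2*-/- replicate 7, and 0 to 3 without single mice, 3 being the value without WT replicate 3. For the signalling genes and relatives the number, also 1, was 9 with either DESeq2 run, 5 with voom, 0 with the replicate block, 3 without those mice together, and 0 to 9 without single mice, 9 without WT replicate 3. For all marker genes, again 1, it was 17 with DESeq2, 14 without its replacement, 5 with voom, 2 without a filter, 0 with the replicate block, 7 without those mice together, and 0 to 10 without single mice, 10 without WT replicate 3. Over all genes tested, the number past 5% FDR moved with the setting as well. It was 157 with all mice, 1209 with DESeq2, 1204 without its replacement and 843 with voom. It was 149 without a filter, 135 at 10 counts in every mouse and 35 with the replicate block. Without those mice together it was 567, and without single mice 41 to 1156, the highest being without WT replicate 3. The log2 fold change of *Cxcr2* ranged from -0.0148 without WT replicate 3 and *Nod2*-/- replicate 7 to 1.98 without WT replicate 6. The former was the only reversal among the genes named with values in every mouse. The level of *Cxcl12* was 758.2 per kilobase of coding length against 33.11 per kilobase of exon, because its coding part is short. Mice with the same replicate number did not consistently deviate together in expression (correlations from -0.30 to 0.30). This cannot tell whether such mice shared a litter, cage or batch. The blocked values rest on 6 pairs. Beyond these values the cause of a change with the setting was not tested. Depth limits the 31 genes with reads that the filter left out, 26 of which had at most 10 reads in every mouse.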
